A study of Mus musculus with 8 samples.

Results

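The genes described here are 41 mouse genes that encode subunits of the Polycomb repressive complexes and enzymes that add or remove methyl groups on histones, together with the histone mark reader Phf13. They were taken as a named list by symbol. No measured value enters the rule, but the list was drawn up with earlier results of these arrays known, so the calls of its members are not independent evidence. On the array, 40 of the 41 had a probe set that names them alone, out of 18193 genes measured in that way. The H3K9 methyltransferase gene Suv39h1 had no such probe set in the annotation used here and is not analysed here. Each gene was read on whichever of its probe sets was brightest on average, and 30 of the 40 had further probe sets, which are given where they bear on a result.

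RNA from 4 groups, with 2 arrays in each, was hybridised to Affymetrix GeneChip mouse expression arrays. The ESCs were derived from mice that combined the Blimp1mVenus reporter transgene with floxed Tfap2c alleles. Control cells were the parental Blimp1mVenus/Tfap2c flox/flox lines, and Tfap2c-/- cells came from these lines after transient transfection with a pGK-Cre plasmid. The gene encodes the transcription factor AP-2 gamma and is labelled with its older symbol, Tcfap2c. All 4 groups carried the reporter. ESCs were grown in medium with N2 and B27 supplements, PD0325901, CHIR99021 and LIF. PGC-like cells (PGCLCs) were made from them through an epiblast-like stage with BMP4, BMP8b, SCF, LIF and EGF and were sorted for reporter fluorescence. PGCLCs are a culture model of primordial germ cells, which the sample labels call PGC, and the sort takes the reporter of Prdm1 (Blimp1) as their mark. The study describes a pair of ESC lines, but the labels do not say which array came from which line. A p-value here sets a difference against the spread between the 2 samples within groups. That spread is pooled over all 4 groups and moderated across genes in the fit.

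Polycomb repressive complex 1 (PRC1) places ubiquitin on histone H2A. Its RING protein, encoded by Ring1 or Rnf2, pairs with a PCGF protein, and the PCGF protein decides which variant of the complex forms. Polycomb repressive complex 2 (PRC2) methylates lysine 27 of histone H3 through Ezh1 or Ezh2, with Eed and Suz12 as obligate partners. In the embryo, primordial germ cells lose dimethylated H3K9 and gain trimethylated H3K27 as they migrate.

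Values are on the log2 scale of the deposited expression values, where a difference of 1 is a doubling. They compare a gene with itself between arrays, and levels of different probe sets were not set against each other. Array medians ran from 3.47 to 3.55. The exogenous bacterial spike-in probe sets (27) averaged 5.05 to 5.48 in the 4 ESC arrays and in control PGCLC replicate 1 (5.39), but 7.25 in control PGCLC replicate 2 and 6.81 and 6.19 in the Tfap2c-/- PGCLCs. The 3' over 5' difference of Gapdh was 0.95 in control PGCLC replicate 2 and 0.31 to 0.52 elsewhere. Tfap2c itself was read on the brightest of its 3 probe sets, which is of the kind that can cross-hybridise. It read 9.84 and 10.29 in control and 8.52 and 8.85 in Tfap2c-/- PGCLCs. In ESCs it read 7.88 and 9.14 in control and 7.28 and 6.47 in Tfap2c-/- cells. Both knockout groups lay below their controls without overlap, yet neither difference passed the test (limma, adjusted p = 1 in ESCs and 0.150 in PGCLCs). Where the probes of this probe set lie relative to the deleted exons is not given in the sources used here. Values of the other Tfap2c probe sets are not given here.

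In PGCLCs, Tfap2c deficiency went with lower RNA of Pcgf5 and Phf13 and higher RNA of Kdm2b, and the other 37 measured genes did not pass the test. A member was called at a Benjamini-Hochberg adjusted p under 0.05 in limma, fitted over all 18193 genes. By this rule 1 member was higher and 2 were lower in Tfap2c-/- PGCLCs. Over all genes, 1.29% were higher and 1.8% lower. The median difference was 0.09 over the 40 members and -0.04 over all genes. The plots of genotype differences and of single arrays show the members by role.

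**Figure D1:**
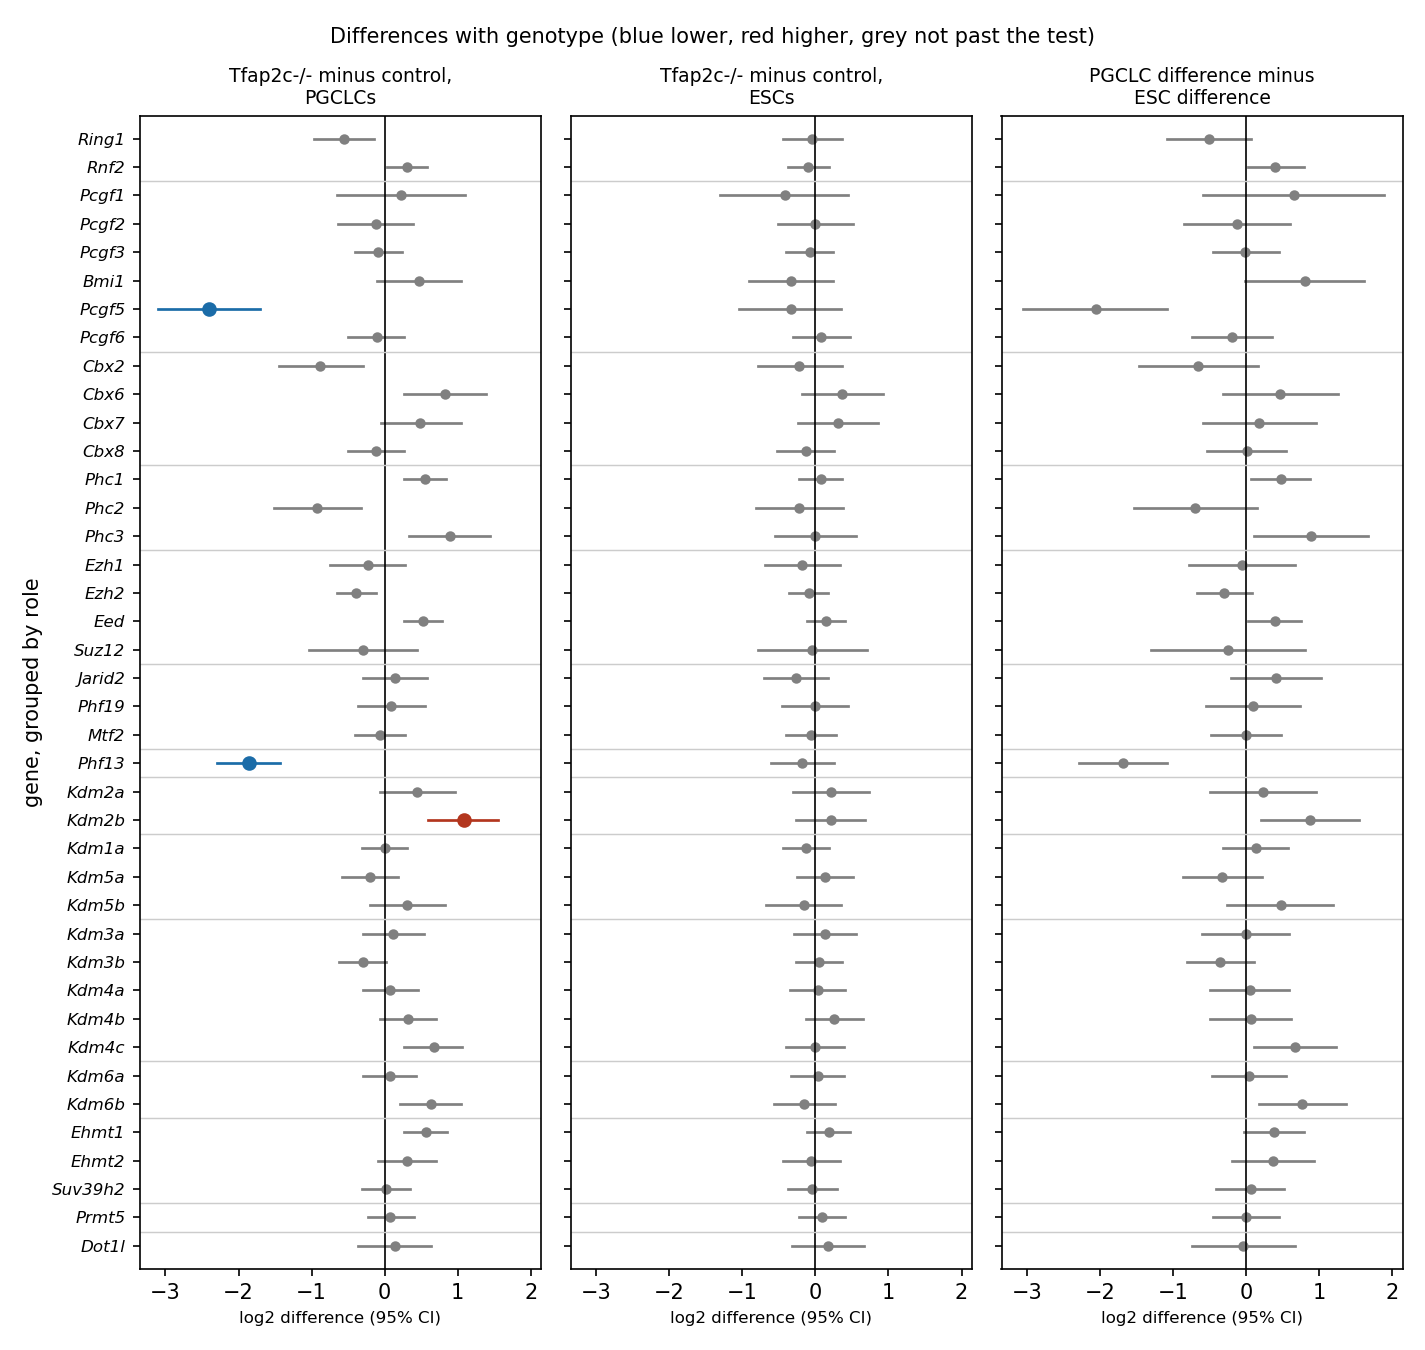
Log2 difference between Tfap2c-/- and control cells for the 40 measured genes, in PGCLCs (left), in ESCs (middle) and the left minus the middle difference (right), with 95% confidence intervals from limma and horizontal lines between roles. Pcgf5 (-2.41) and Phf13 (-1.86) stand at the lower end and Kdm2b (1.08) at the upper end in PGCLCs, and no gene passed the test in the middle or right panel.

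Pcgf5 encodes one of the alternative PCGF proteins of the non-canonical, CBX-free forms of PRC1. In PGCLCs it read 8.48 and 8.81 in control and 6.54 and 5.93 in Tfap2c-/- cells. In ESCs the values were 6.33 and 6.83 in control and 6.54 and 5.93 in Tfap2c-/- cells. Control PGCLCs alone were high, and the Tfap2c-/- PGCLCs lay in the range of the ESCs. The difference with genotype in PGCLCs was -2.41 (SE 0.30, 95% CI -3.10 to -1.71), a 5.31-fold lower value (limma adjusted p = 0.0092). It did not pass the test without control PGCLC replicate 2 (-2.24, adjusted p = 0.0858) or without Tfap2c-/- PGCLC replicate 2 (-2.10, adjusted p = 0.0666). The gene has another 2 probe sets here. One read 6.65 and 7.27 in control and 4.96 and 5.79 in Tfap2c-/- PGCLCs, and the other, near the array median, read 2.92 and 4.37 against 2.31 and 2.23. Control PGCLCs were above Tfap2c-/- PGCLCs on all of them without overlap. The differences on the further probe sets, -1.58 and -1.38, did not pass in the limma fit over all probe sets (adjusted p = 0.15 and 0.153).

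Phf13 encodes a PHD finger protein that reads trimethylated H3K4. Its PGCLC values were 8.36 and 8.63 in control and 6.69 and 6.58 in Tfap2c-/- cells, and its ESC values 6.46 and 6.70 in control and 6.25 and 6.55 in Tfap2c-/- cells. As for Pcgf5, the control PGCLCs were the high group and the other 6 arrays lay together below them. The difference in PGCLCs was -1.86 (SE 0.18, 95% CI -2.29 to -1.43), which is 3.63-fold lower (limma adjusted p = 0.00409). Phf13 passed the test under all 17 alternative fits, with adjusted p from 0.00371 to 0.0461. It has a single probe set, so no second set of probes bears on it. Among the 40 members, Pcgf5 and Phf13 were the 2 with a difference above 1.5, a size reached by 1.95% of all genes.

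Kdm2b encodes a JmjC demethylase of H3K36 that binds unmethylated CpG sites through its CXXC domain and brings the Pcgf1 form of PRC1 to them. Among PGCLCs, control arrays read 9.13 and 8.58 and Tfap2c-/- arrays 9.89 and 9.97. Among ESCs, control arrays read 9.58 and 9.17 and Tfap2c-/- arrays 9.51 and 9.66. Control PGCLCs were lowest and Tfap2c-/- PGCLCs highest of the 4 groups, and these 2 groups overlapped with no other array. The difference in PGCLCs was 1.08 (SE 0.20, 95% CI 0.60 to 1.55), or 2.11-fold higher (limma adjusted p = 0.036). This probe set is of the kind that can cross-hybridise. A further one, which is not, read 8.11 and 7.74 against 9.05 and 9.08, a difference of 1.14 that did not pass in the fit over all probe sets (adjusted p = 0.0544) and passed in the fit without cross-hybridising probe sets (adjusted p = 0.0449). The call was lost on leaving out control PGCLC replicate 2 (0.80, adjusted p = 0.203), either Tfap2c-/- PGCLC replicate (1.11 and 1.04, adjusted p = 0.131 and 0.207) or either Tfap2c-/- ESC replicate (1.08, adjusted p = 0.0517 and 0.0523). It passed in 10 of 17 alternative fits.

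Cell state markers differed between the same arrays. Of 9 measured PGC markers, which include the deleted gene Tfap2c itself, 2 (Dppa3 and Kit) were lower and 0 higher in Tfap2c-/- PGCLCs. Differences were negative for 8 of the 9, and positive for Ifitm3 (0.36). At an unadjusted p under 0.05 in limma there were 6 (66.7%), against 15.7% of all genes. Prdm1, whose reporter marked the sorted cells, differed by -0.89 without overlap and did not pass (limma adjusted p = 0.256). The log2 of the summed linear values of the 9 was 12.44 to 12.64 in control PGCLCs, 11.68 to 11.70 in Tfap2c-/- PGCLCs and 10.51 to 11.07 in ESCs. Of 10 ESC markers, 2 (Klf4 and Tdgf1) were higher, with sums of 13.23 to 13.30 in control and 13.55 to 13.75 in Tfap2c-/- PGCLCs. For mesoderm, endoderm, neural and fibroblast markers (6 measured in each list), 0 passed the test. The endoderm and fibroblast lists had no gene above the array median on all 8 arrays, although the fibroblast sum was 6.57 and 5.52 in control and 6.94 and 5.95 in Tfap2c-/- PGCLCs, against 5.45 to 5.53 in ESCs. The part of these markers and of the spike-in difference in the results was not tested, and in sorted bulk samples fewer cells of a type and less RNA per cell cannot be told apart.

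The start regions of Pcgf5 and Phf13 are shown because these genes, both called in PGCLCs, shared the pattern of one high group. That pattern was not particular to them. Both control PGCLC arrays also lay above all other arrays for Ring1 (5.66 and 5.94), Cbx2 (5.84 and 6.17), Phc2 and, narrowly, Kdm5a. The same held for Nsd2 and Scmh1 among the related genes given below. Each window holds 250 bases before and 50 after a RefSeq gene start in GRCm38.p6, read 5' to 3' on the gene's strand, with CG dinucleotides in capitals. For Pcgf5 it is the most upstream of 3 annotated starts, chr19:36348079-36348378 on the plus strand, and for Phf13 the only one, chr4:151996130-151996429 on the minus strand.
Pcgf5: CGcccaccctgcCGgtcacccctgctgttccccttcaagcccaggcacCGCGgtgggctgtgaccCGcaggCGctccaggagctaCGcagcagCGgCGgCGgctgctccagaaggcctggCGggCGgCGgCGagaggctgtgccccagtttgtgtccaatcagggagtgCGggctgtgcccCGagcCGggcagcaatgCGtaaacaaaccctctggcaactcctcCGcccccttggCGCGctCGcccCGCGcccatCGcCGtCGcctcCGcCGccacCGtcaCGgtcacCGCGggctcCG
Phf13: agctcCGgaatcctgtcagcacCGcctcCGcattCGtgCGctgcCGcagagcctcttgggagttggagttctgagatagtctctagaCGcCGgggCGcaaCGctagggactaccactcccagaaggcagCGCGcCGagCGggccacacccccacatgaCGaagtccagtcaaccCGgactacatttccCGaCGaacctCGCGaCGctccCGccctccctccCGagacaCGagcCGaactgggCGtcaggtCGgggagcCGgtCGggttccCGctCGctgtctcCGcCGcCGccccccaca
Each window holds 34 CG dinucleotides, and 7.73% of all 32851 RefSeq windows hold as many or more. The most upstream window of Kdm2b (chr5:122989050-122989349, minus strand) holds 28, a count reached by 14.2% of windows. CG dinucleotides were frequent over the whole gene set, with a median of 26 in the 48 windows of the 34 members that had one and 7 in all windows. The AP-2 motif GCCNNNGGC, which reads the same on both strands, was searched in these windows. It was in none of the windows of Pcgf5 (3), Phf13 (1) or Kdm2b (4). Of the 34 members, 4 held it (Cbx6, Phf19, Prmt5 and Rnf2), a share of 11.8%, and 18.5% of the 27025 genes with a window did. These matches describe letters in the windows only.

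Phf19 encodes a Polycomb-like PRC2 partner that reads trimethylated H3K36, and its probe sets disagreed. It is named here after its values were seen. The probe set that stands for the gene read 4.13 and 3.88 in control PGCLCs, 4.17 and 4.03 in Tfap2c-/- PGCLCs and 3.99 to 4.33 in ESCs, with all groups overlapping. On the other probe set the control PGCLCs read 5.60 and 6.23 and the Tfap2c-/- PGCLCs 3.61 and 3.86, with ESCs at 2.93 and 3.40 (control) and 3.39 and 2.86 (Tfap2c-/-). On that probe set the control PGCLCs stood above all other arrays, as for Pcgf5 and Phf13. In a limma fit over all 34945 probe sets that name 1 gene, its difference in PGCLCs was -2.18 (adjusted p = 0.0153), and the probe set that stands for the gene differed by 0.09. In that fit 4 of the 103 member probe sets passed the test, 1 higher and 3 lower, and these belong to 4 genes, Pcgf5, Phf13, Kdm2b and Phf19. The share of member probe sets called was 3.88% and that of all probe sets 2.01%. The plot of single probe sets shows these 4 genes. The start region of Phf19 (chr2:34913927-34914226, minus strand, GRCm38.p6) holds the motif once, in capitals, beginning 45 bases before the gene start. It is shown because Phf19 alone of the 4 members with the motif had a probe set called with genotype. The windows of Cbx6, Prmt5 and Rnf2 are not shown. Their differences in PGCLCs were 0.83, 0.08 and 0.30, and none passed the test.
Phf19: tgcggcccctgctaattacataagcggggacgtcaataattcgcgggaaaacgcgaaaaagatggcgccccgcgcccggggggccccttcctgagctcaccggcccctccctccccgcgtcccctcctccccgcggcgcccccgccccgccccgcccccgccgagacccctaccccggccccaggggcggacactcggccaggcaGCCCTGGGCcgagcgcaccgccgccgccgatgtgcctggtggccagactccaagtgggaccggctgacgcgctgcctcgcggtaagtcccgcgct

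**Figure D2:**
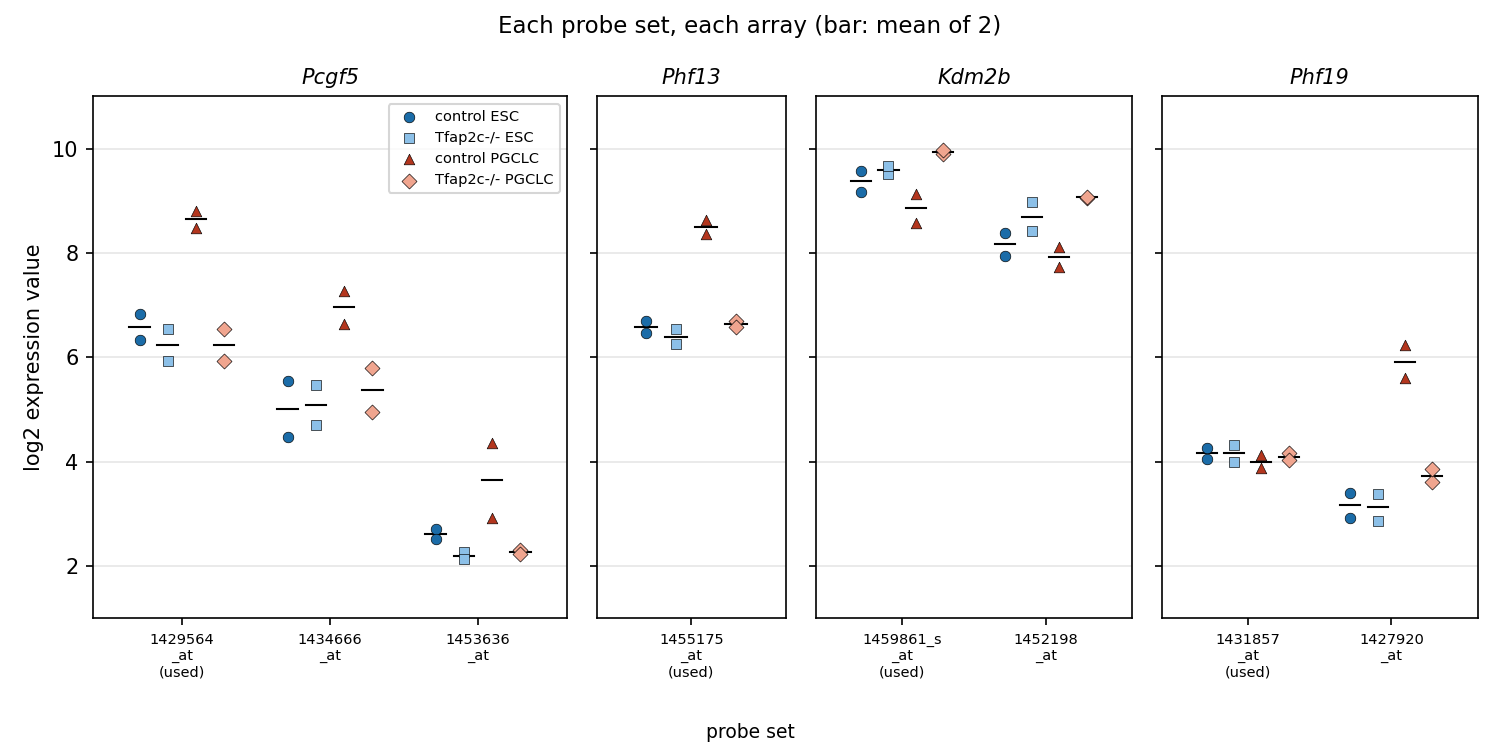
Log2 expression value of every probe set of Pcgf5, Phf13, Kdm2b and Phf19 on each of the 8 arrays, with a bar at the mean of the 2 arrays of a group and "used" marking the probe set that stands for the gene. Control PGCLCs are the high group on every Pcgf5 and Phf13 probe set and on the unused Phf19 probe set (5.60 and 6.23), and have the lowest mean on both Kdm2b probe sets.

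The remaining PRC1 genes did not pass the test in PGCLCs. The catalytic subunit genes had differences of opposite sign, with Ring1 at 5.66 and 5.94 in control and 5.23 and 5.27 in Tfap2c-/- PGCLCs, and Rnf2 at 9.21 and 9.29 against 9.49 and 9.62. Their differences were -0.55 (95% CI -0.96 to -0.14) and 0.30 (0.03 to 0.58), with adjusted p of 0.171 and 0.259 in limma. The other 5 PCGF genes, Pcgf1, Pcgf2, Pcgf3, Bmi1 and Pcgf6, had differences from -0.12 to 0.47. Of the CBX genes, whose proteins bind methylated H3K27 in canonical PRC1, Cbx2 had a difference of -0.88 (-1.45 to -0.30) and Cbx6 one of 0.83 (0.27 to 1.39), and neither passed (adjusted p = 0.123 and 0.129). Cbx8 read 2.69 to 3.03 on all arrays, below the median of 3.52 over all probe sets and arrays. Of the Polyhomeotic genes, Phc1 had a difference of 0.55, Phc2 of -0.92 and Phc3 of 0.89, with adjusted p of 0.0637, 0.121 and 0.103. Control and Tfap2c-/- PGCLCs did not overlap for any of these 3 genes.

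None of the PRC2 core genes passed the test in PGCLCs, and Phf19 is given above. Eed read 10.01 and 9.99 in control and 10.47 and 10.58 in Tfap2c-/- PGCLCs, without overlap, and its difference of 0.52 (95% CI 0.27 to 0.78) just missed the threshold (limma adjusted p = 0.0514). Ezh2, the main methyltransferase of the complex in dividing cells, read 9.46 and 9.63 in control and 9.19 and 9.13 in Tfap2c-/- PGCLCs, a difference of -0.39 (-0.65 to -0.12, adjusted p = 0.136). Ezh1 (-0.23), Suz12 (-0.30), Jarid2 (0.14) and Mtf2 (-0.06) had differences whose intervals all include 0. Suz12 had a wide interval, from -1.04 to 0.45. Its values were 10.17 and 9.62 in control and 9.85 and 9.35 in Tfap2c-/- PGCLCs, and 9.99 and 9.28 in control and 9.90 and 9.28 in Tfap2c-/- ESCs. The sample numbered 1 was the higher one in each of the 4 groups.

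Among the demethylases and methyltransferases, Kdm2b was the only member called in PGCLCs. The H3K4 demethylase genes Kdm1a, Kdm5a and Kdm5b had differences from -0.20 to 0.31, and the H3K9 demethylase genes Kdm3a, Kdm3b, Kdm4a, Kdm4b and Kdm4c from -0.30 to 0.67. Kdm4c, at the top of that range, read 7.62 and 7.39 in control and 8.21 and 8.15 in Tfap2c-/- PGCLCs (adjusted p = 0.0898 in limma). Of the H3K27 demethylase genes, Kdm6a differed by 0.07 (95% CI -0.29 to 0.43) and Kdm6b by 0.63 (0.21 to 1.05, adjusted p = 0.126). The further Kdm6b probe sets had larger differences, 1.07 and 1.10, without overlap of the groups. They did not pass in the limma fit over all probe sets (adjusted p = 0.0905 and 0.092). Ehmt1 and Ehmt2, which encode the GLP and G9a proteins that dimethylate H3K9, had differences of 0.56 (0.27 to 0.85, adjusted p = 0.0604) and 0.31 (-0.09 to 0.70). Suv39h2 (0.02), the arginine methyltransferase gene Prmt5 (0.08) and the H3K79 methyltransferase gene Dot1l (0.14) had intervals within 0.64 of 0.

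Control and Tfap2c-/- PGCLCs did not overlap for 24 of the 40 members, 15 higher and 9 lower, and 47.5% of all genes did not overlap in that comparison. At an unadjusted p under 0.05 there were 15 members (37.5%), against 15.7% of all genes. The 95% interval of the difference lay within 1 of 0 for 27 of the 40 (67.5%), and for 80.3% of all genes. Of the 40 members, 38 read above the median of all probe sets on all 8 arrays. All genes include dim ones, whose differences can be understated. The part of expression level in these shares, here and in the comparisons below, was not tested, so they are not read as particular to the members. The number of members past the test changed with single arrays left out. The share of all genes called in those fits is not given here, so the change is not read as particular to the members.

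**Figure D3:**
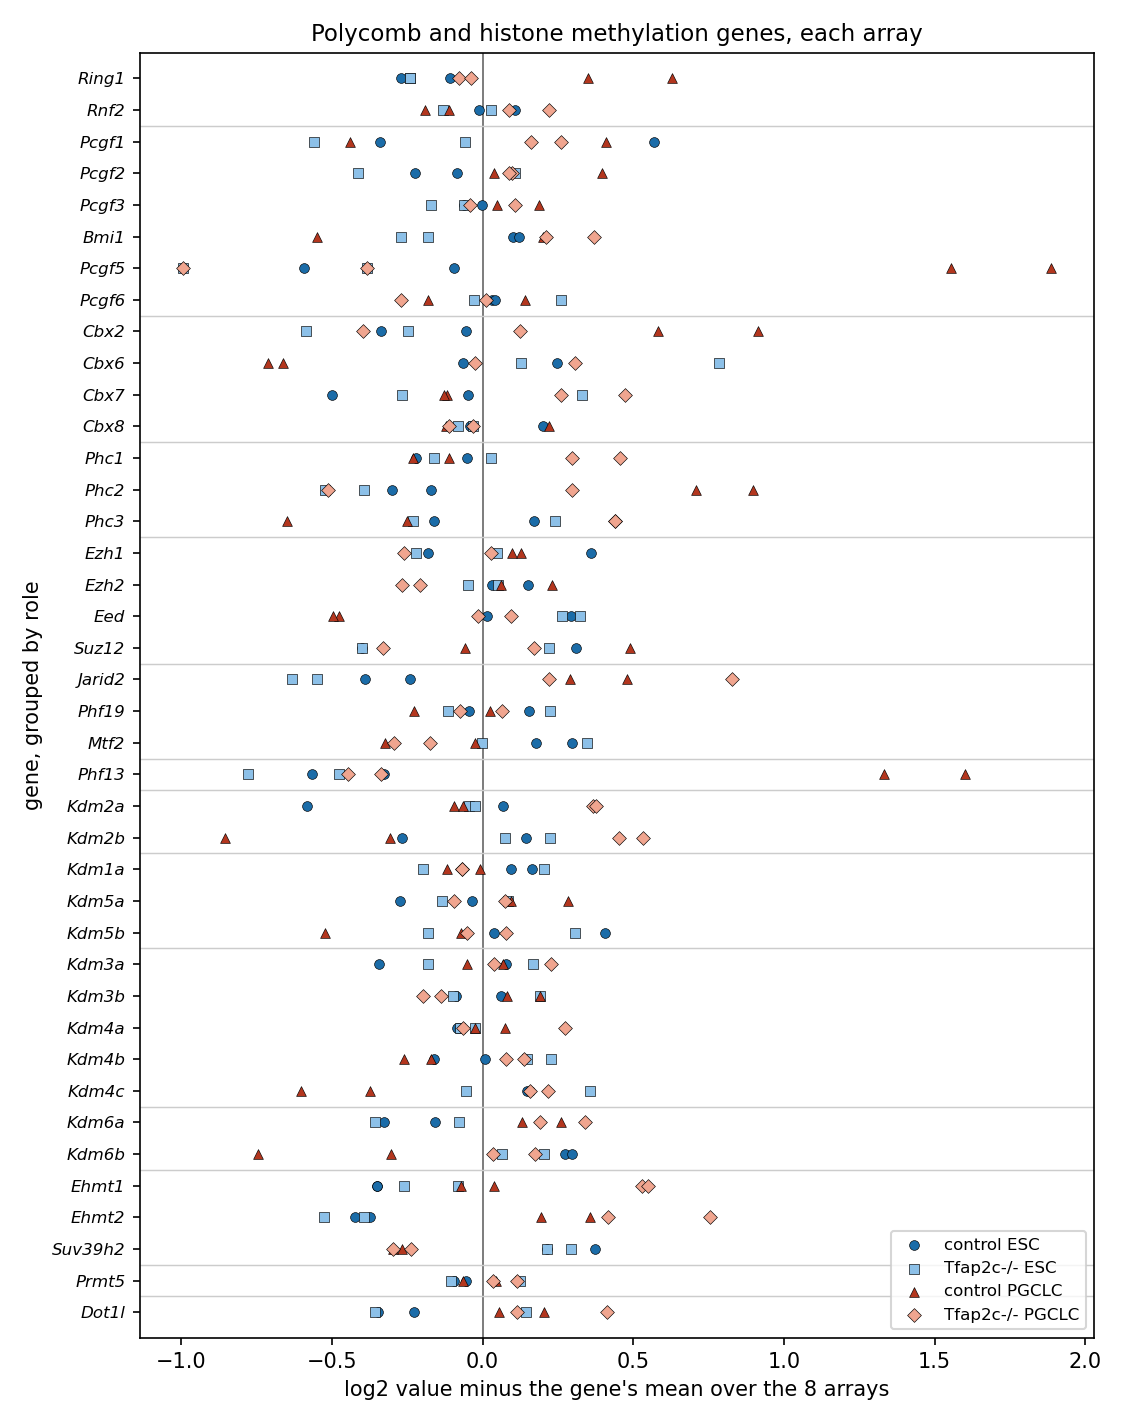
Log2 value of each of the 40 genes on each of the 8 arrays, minus that gene's mean over the 8 arrays, with 4 symbols for the groups and horizontal lines between roles. The control PGCLCs stand apart to the right for Pcgf5 and Phf13, and most other genes spread over less than 1.5 across all arrays.

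In ESCs no member passed the test with genotype. In limma 0 of 40 members were higher and 0 lower, where 0% of all genes were higher and 0% lower, and 0 members reached an unadjusted p under 0.05, against 455 of all genes (2.5%). Pcgf1, which encodes the PCGF protein that works with Kdm2b, had the largest difference in size. It read 3.89 and 4.80 in control and 4.17 and 3.67 in Tfap2c-/- ESCs, so that the groups overlapped, and its difference was -0.42 (95% CI -1.30 to 0.45). Cbx6 read 7.78 and 7.47 in control and 7.66 and 8.32 in Tfap2c-/- ESCs, also with overlap, for a difference of 0.37 (-0.19 to 0.92). Pcgf5 had a difference of -0.34 (-1.04 to 0.35) and Phf13 one of -0.18 (-0.61 to 0.25). Kdm2b differed by 0.21 (-0.27 to 0.68). The interval lay within 1 of 0 for 38 of the 40 members, all but Pcgf1 and Pcgf5, and for 89.6% of all genes. The groups did not overlap for 7 members, and 22.7% of all genes did not. No member had a difference above 1.5, and 0.132% of all genes did.

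The difference of the PGCLC and ESC genotype effects was tested directly. In limma 0 of 40 members were called higher and 0 lower, against 0.033% and 0.115% of all genes, and 9 members (22.5%) had an unadjusted p under 0.05, against 9.01% of all genes. Phf13 came nearest to the threshold, at -1.68 (95% CI -2.29 to -1.08, adjusted p = 0.0816). Pcgf5 had the larger difference, at -2.06 (-3.05 to -1.08), with a wider error (adjusted p = 0.166). Their genotype effects are therefore not shown to differ between PGCLCs and ESCs at this threshold, although both intervals lie below 0. On the probe sets that stand for the genes, these 2 were the members above 1.5 in size, where 1.71% of all genes were. The other Phf19 probe set had -2.13 (adjusted p = 0.191 in the limma fit over all probe sets). Among the probe sets that stand for the genes, that of Phc3 was next, at 0.89 (0.11 to 1.67, adjusted p = 0.48). Its PGCLC values were 5.02 and 4.62 (control) and 5.71 and 5.71 (Tfap2c-/-), and its ESC values 5.11 and 5.44 (control) and 5.04 and 5.51 (Tfap2c-/-).

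Between control PGCLCs and control ESCs, Pcgf5, Phf13 and Phc2 were higher and Eed, Kdm6b and Suv39h2 were lower in PGCLCs. That is 3 higher and 3 lower of 40, where 4.64% of all genes were higher and 3.72% lower. This comparison uses the same control PGCLC arrays as the genotype comparison, so values of the 2 are given side by side and are not independent. Pcgf5 was higher by 2.06 (95% CI 1.37 to 2.76, limma adjusted p = 0.00829) in control PGCLCs than in control ESCs, beside -2.41 with genotype. Phf13 was higher by 1.91 (1.49 to 2.34, adjusted p = 0.00208), beside -1.86. On the probe sets that stand for the genes, Pcgf5 and Phf13 were the members above 1.5 in size, and 3.49% of all genes were. The other Phf19 probe set was higher by 2.75 in control PGCLCs (adjusted p = 0.00382 in the limma fit over all probe sets).

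Phc2, a Polyhomeotic gene of canonical PRC1, read 7.93 and 7.74 in control PGCLCs and 6.73 and 6.86 in control ESCs. Tfap2c-/- cells read 7.33 and 6.52 (PGCLCs) and 6.51 and 6.64 (ESCs). The control PGCLCs lay above every other array, and the Tfap2c-/- PGCLC replicates lay far apart. Its difference between the control groups was 1.04 (95% CI 0.45 to 1.64, limma adjusted p = 0.0483), on a probe set of the kind that can cross-hybridise. Its other probe set read 7.28 and 7.18 against 5.75 and 6.03. Eed, which binds the methylated H3K27 that PRC2 makes, read 10.78 and 10.50 in control ESCs, above 10.01 and 9.99 in control PGCLCs, for a difference of -0.64 (-0.89 to -0.38, adjusted p = 0.0156). The mean over the probe sets of Eed, one of which lies near 2, gave -0.29 (adjusted p = 0.268).

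Kdm6b, an H3K27 demethylase gene, read 7.67 and 7.69 in control ESCs and 7.09 and 6.65 in control PGCLCs. The groups did not overlap, and the difference was -0.81 (95% CI -1.22 to -0.39, limma adjusted p = 0.0361). Kdm6b was read on a probe set of the kind that can cross-hybridise. Tfap2c-/- PGCLCs read 7.43 and 7.57 on it, between the control PGCLCs and the control ESCs. The other Kdm6b probe sets differed between the controls by -0.72 and -0.26 (adjusted p = 0.151 and 0.633 in the limma fit over all probe sets). Suv39h2, an H3K9 methyltransferase gene of heterochromatin, read 7.60 and 7.44 in control ESCs and 6.96 and 6.93 in control PGCLCs. Tfap2c-/- cells read 7.52 and 7.44 (ESCs) and 6.99 and 6.93 (PGCLCs). Both PGCLC groups lay below both ESC groups, and the difference between the controls was -0.57 (-0.90 to -0.25, adjusted p = 0.0483). The other Suv39h2 probe sets differed by -0.25 and -0.31 (adjusted p = 0.416 and 0.448 in the limma fit over all probe sets).

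Each of these calls, except that of Phf13, was lost in some fits with an array left out. Such a fit has fewer residual degrees of freedom, also where the array left out is in neither group compared. A lost call is therefore not read as an effect of that array. Without control ESC replicate 1, Pcgf5 had an adjusted p of 0.0665 and Eed of 0.0860. Without control PGCLC replicate 2 these were 0.0679 and 0.0970, and without control PGCLC replicate 1 that of Eed was 0.0728. Phc2 was called only with every ESC and control PGCLC array in the fit, Kdm6b failed without any of 5 arrays and Suv39h2 without any of the 8, with adjusted p up to 0.201, 0.181 and 0.224. The count of members past the test also changed between these fits. The share of all genes called in them is not given here, so the change is not read as particular to the members.

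**Figure D4:**
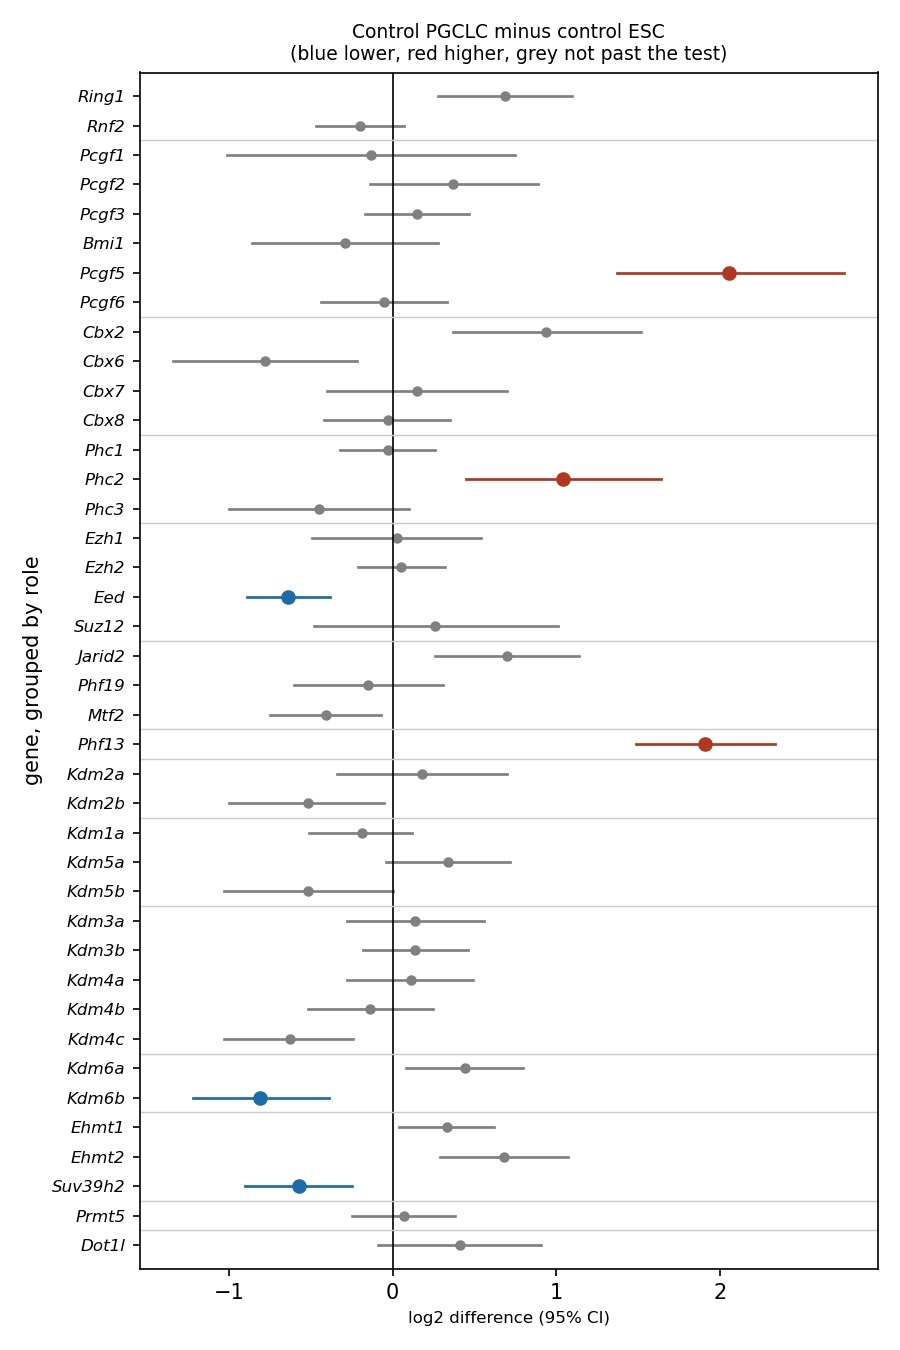
Log2 difference between control PGCLCs and control ESCs for the 40 measured genes, with 95% confidence intervals from limma and horizontal lines between roles. Pcgf5 (2.06) and Phf13 (1.91) lie farthest from 0, and the other 4 genes past the test lie between -0.81 and 1.04.

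Several members lay close to the threshold between the control groups, with groups that did not overlap. Ehmt2 read 7.45 and 7.29 in control PGCLCs against 6.72 and 6.67 in control ESCs (0.68, limma adjusted p = 0.0507). Ring1 (0.69, adjusted p = 0.0547), Cbx2 (0.94, adjusted p = 0.0592) and the PRC2 cofactor gene Jarid2 (0.70, adjusted p = 0.0636) were on the same side, and Kdm4c (-0.63, adjusted p = 0.0632) on the other. The groups did not overlap for 27 of 40 members, and 53.8% of all genes did not. The median difference was 0.06 over the members and -0.03 over all genes. At an unadjusted p under 0.05 there were 17 members (42.5%), against 23.4% of all genes. Probe sets disagreed for Pcgf6, whose protein belongs to a non-canonical PRC1 with E2F6 and MGA. Its main probe set differed by -0.05, and another, at 7.01 and 7.14 in control ESCs and 5.90 and 5.79 in control PGCLCs, by -1.23 (adjusted p = 0.0168 over all probe sets). Pcgf6 was not the only such case. In the limma fit over all probe sets, further ones passed for Jarid2 (0.85, adjusted p = 0.0268), Rnf2 (-0.58, adjusted p = 0.0491) and Phc2 (1.33, adjusted p = 0.0441). Their main probe sets did not pass in that fit (0.70, -0.20 and 1.04, adjusted p = 0.0695, 0.392 and 0.0546). Over all probe sets, 10 of the 103 member probe sets passed, 9.71%, against 6.65% of all probe sets.

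Other genes of these pathways, 67 measured of 70 listed in 9 groups, were read in the same fit. In PGCLCs 2 were higher and 1 lower in limma, a share of 4.48%, against 3.09% of all genes. In ESCs and in the difference of effects 0 were called. At an unadjusted p under 0.05 there were 0 in ESCs, against 2.5% of all genes. For the difference of effects there were 8 (11.9%), against 9.01% of all genes. Epop, which encodes a PRC2 partner, read 4.36 and 3.90 in control and 5.32 and 5.67 in Tfap2c-/- PGCLCs (1.36, 95% CI 0.72 to 2.00, adjusted p = 0.0448). Jmjd1c, of the Kdm3 family, read 9.12 and 8.97 against 9.63 and 9.71 (0.63, adjusted p = 0.0334), and Nsd2, an H3K36 methyltransferase gene, 7.42 and 7.27 against 6.47 and 6.30 (-0.96, adjusted p = 0.0433). None of these 3 pairs of groups overlapped. Between the control groups 6 related genes were higher and 4 lower in PGCLCs, a share of 14.9%, against 8.37% of all genes. The largest of these were the PRC1-associated gene Scmh1, at 3.93 and 4.16 in control ESCs and 5.74 and 6.09 in control PGCLCs (1.87, adjusted p = 0.0126), and the arginine methyltransferase gene Prmt2, at 4.59 and 5.08 against 6.80 and 6.41 (1.77, adjusted p = 0.0258). The median difference with genotype in PGCLCs was 0.13 over the 67 genes.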

How the data were processed

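RNA of the 8 samples was measured on Affymetrix GeneChip Mouse Genome arrays. The authors deposited 1 log2 expression value per probe set and array, background corrected and normalised across arrays. RMA is the normalisation given in the study's methods, while GCRMA, with no version, is in the submitters' processing notes. Of 45101 probe sets, 64 controls, 932 that name several genes and 9160 that the platform annotation used here leaves unnamed were left out, and the remaining 34945 name 18193 genes. A gene was read on its probe set with the highest mean. Group means were fitted to all 8 arrays with limma 3.58.1 in R 4.3.3 (lmFit, eBayes with trend, 4 residual and 3.67 prior degrees of freedom, two-sided). P-values were adjusted by Benjamini-Hochberg over all genes and called under 0.05. Every value column was used. The number of arrays limits the precision, and dim probe sets can understate a difference.

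Named genes are the members past the test in any comparison, the 3 with the largest difference in each, Pcgf5, Phf13 and the check gene Tfap2c, and related genes past the test (for the cell type comparison the largest 2). Other members are given by ranges. Those near the threshold, Phf19, Pcgf6 and the further probe sets of other members were named after their values were seen. Members and lists were chosen with earlier results of these data known. Scripts were tested on simulated data. Alternatives were averaging the probe sets of each gene, all probe sets, no cross-hybridising probe sets, eBayes without trend, the arrays of 2 groups only, a filter on dim genes, quantile normalisation again, a fold rule of 1.5 (log2), the replicate number as a block and each array left out. Promoter windows came from RefSeq (GRCm38.p6) and were read with Python 3.11.15 and pandas 2.3.3, and plots were drawn with Matplotlib 3.10.9.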

Additional observations from a re-analysis of the deposited data

How the results depend on the processing

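In PGCLCs, 3 members passed the test with genotype, and the count was 5 with dim genes filtered out and 1 to 4 with each array left out in turn. In ESCs 0 members passed under any setting run. The direct test of the difference between cell types called 0 members in the limma fits, and the fold rule of 1.5, which has no test, took 2. Between control PGCLCs and control ESCs, 6 members passed. That count was 10 with dim genes filtered out, 2 by the fold rule and 1 to 6 with each array left out. The cause of these shifts was not tested. The shares of all genes called under these settings, and with the replicate blocks below, are not given here. The shifts are therefore not read as particular to the members. Pcgf1, which was not called in ESCs, was -0.42 and ranged from -0.88 to 0.03 with each array left out, turning positive without control ESC replicate 2. Phf13 passed in PGCLCs and between the control groups under all 17 alternative fits, and Pcgf5 under 15 of 17 in each. Kdm2b passed in 10, Eed in 13, Phc2 and Kdm6b in 8 and Suv39h2 in 4 of 17.

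With the replicate number as a block, 4 members passed in PGCLCs, 0 in ESCs, 0 for the difference and 6 between the control groups. Deviations of same-numbered samples correlated between -0.333 and 0.392 over the 6 pairs of groups, 3 of them at 0.174 or above, so the numbers were not taken to pair the samples. Whether they follow the ESC lines is not given in the labels. With the Tfap2c-/- ESC numbers crossed, an alternative chosen after seeing the data, the counts were 3, 0, 0 and 6. Quantile normalisation again shifted the median of all genes by at most 0.013 in size. Signals near the array median, as for Cbx8 and Pcgf2, limit the sizes that can be read.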

Other observations

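The Y-linked H3K27 demethylase relative Uty, beside its X-linked counterpart Kdm6a, differed within groups. On its brightest probe set, replicates 1 and 2 of Uty read 6.78 and 3.67 (control ESC), 6.04 and 6.11 (Tfap2c-/- ESC), 6.08 and 1.81 (control PGCLC), and 5.80 and 3.42 (Tfap2c-/- PGCLC). The Y-linked gene Eif2s3y, looked at after these values were seen, read 8.93 and 5.87, 8.94 and 8.85, 8.79 and 5.54, and 8.34 and 7.45 in the same order. Kdm6a itself read 7.64 to 8.34 over the 8 arrays. The labels give no sex or line for these samples, and the part of this difference in the results was not tested.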
